A study of Mus musculus with 12 samples.

Results

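Colonic epithelium from tamoxifen-treated mice labelled as intestinal knockouts of Ehf was compared with that of tamoxifen-treated wild-type mice. The comparison took the 4 libraries of the knockout group (Ehf IKO) and the 4 of the tamoxifen control group (Control TMX) by their titles, 8 of the 12 libraries of the series, and all 15188 genes that passed a filter on low counts. The mice were C57BL/6 and 6 weeks old, and their epithelial cells were shaken off the opened colon in EDTA buffer before total RNA was extracted and sequenced. Control TMX mice carried the source name VilCreER, which the series text gives as Villin CreERT2, a Cre recombinase that tamoxifen activates and that the Villin promoter drives in intestinal epithelium. Ehf IKO mice carried the source name EVCER, the genotype Ehf intestinal knockout and the same treatment, and the exons deleted are not named in the labels. Tamoxifen was thus given in both groups, while the Ehf allele and the mouse line both differed, and effects of the line and of the knockout cannot be told apart in these 8 libraries. The remaining 4 libraries, Control OIL, came from mice with the source name EVCER, labelled wild-type and given sunflower oil, and are used only to give levels beside those of the other groups.

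EHF is a transcription factor of the ETS family, whose members bind DNA through a conserved domain that recognises a GGAA core, and it is made mainly in epithelial tissues. In the colon, stem and progenitor cells at the crypt base give rise to absorptive colonocytes, which take up water, salt and minerals at the surface, and to secretory cells, among them goblet cells that make mucus, enteroendocrine cells that release hormones and deep crypt secretory cells that sit beside the stem cells. The series text asks what loss of Ehf does to this epithelium, and the tamoxifen-treated controls address changes due to the drug.

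The 8 libraries held 7421411 to 10344161 counted reads. Levels are given as CPM (reads counted for a gene per unit of library size, with TMM correction, which assumes that most genes do not differ), in the order replicate 1 to 4. Fold changes are Ehf IKO over Control TMX on the log2 scale with their SE, and a gene is called at an adjusted p under 0.05 from the quasi-likelihood test of edgeR. Xist and the Y-linked genes placed replicates 1 and 2 of each group as female and 3 and 4 as male. The share of mitochondrial counts was 12.2% to 26.2% in Control TMX and 13.2% to 21.3% in Ehf IKO. Ehf IKO 2 stood apart since 10 satellite-like genes held 10.4% of its counts (no more than 0.114% elsewhere). It also had counts in 36109 genes, against 23588 to 25966 in the other libraries, so low levels in Ehf IKO 2 need care. Ehf IKO 4 lay at one end of the first principal component (55.7, the others -28.1 to 18.3). Epithelial genes were abundant in every library, with Epcam at 851 to 970.01 CPM in Control TMX and 944 to 1045 in Ehf IKO, and Cdh1 at 1063 to 1266 CPM over all 8. Of lymphocyte genes, Cd3e was at or under 1.65 and Cd79a at or under 0.827 CPM, both highest in Ehf IKO 2. The plasma cell gene Igha ranged from 22.8 to 126.5 CPM. Since these are bulk samples, fewer cells of a type and less RNA per cell cannot be told apart. The labels name the libraries as separate mice only through the animal numbers in the source names, so p-values measure the spread between these samples.

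Counts of Ehf itself do not measure the deletion, since each is a sum over all exons of the gene. Ehf (ENSMUSG00000012350, chromosome 2, 103263433 to 103303278 on GRCm38, minus strand) was at 344, 342, 325 and 373 CPM in Control TMX and at 360.0, 370.1, 308 and 321 CPM in Ehf IKO. The groups overlapped, with a log2 fold change of -0.03 ± 0.10 (edgeR adjusted p = 0.947). The related ETS gene Elf3 was also at the same mean level, 342 ± 77.9 CPM in Control TMX and 342 ± 29.2 in Ehf IKO (SD, n = 4).

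Transcripts downstream of Ehf separated the groups completely. Gm13873, a processed pseudogene 30469 bases beyond the 3′ end of Ehf on the same strand, was at 21.3, 19.4, 14.9 and 18.4 CPM in Ehf IKO (575 counts in all) without a count in Control TMX, at least 214-fold higher when Control TMX is set at a floor of 3 counts over the group. The lincRNA Gm13869, 53076 bases beyond that end, reached 27, 21, 9 and 21 counts in Ehf IKO without a count in Control TMX, at least 29.1-fold higher by the same floor, and held too few counts to be tested. Gm13874, a lincRNA on the other strand, reached 30, 26, 16 and 18 counts in Ehf IKO against 1 count in Control TMX, in replicate 4. The edgeR adjusted p was 7.7e-06 for Gm13873 and 4.8e-04 for Gm13874. Floors cover counting error only. In Control OIL, which has the same source name as Ehf IKO, Gm13873 had 1 count in all and Gm13869 had 0. Gm13874 had 8, 2, 0 and 2 counts there. On the 5′ side, Elf5 had 1, 5, 0 and 1 counts in Ehf IKO, most of them in Ehf IKO 2. It had 0, 1, 0 and 0 counts in Control TMX and 2, 0, 1 and 0 in Control OIL.

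Across the transcriptome, 0.902% of the 15188 tested genes were called, 54 higher (0.356%) and 83 lower (0.546%) in Ehf IKO, and 79 (0.52%) differed by at least 2-fold. The called rises had a median fold of 2.63 and the falls of 2.06, while the median log2 fold change of all tested genes was 0.00. In every called gene the 4 Ehf IKO libraries lay wholly above or wholly below the 4 Control TMX libraries, which was so for 7.22% of all tested genes (3.13% above and 4.09% below). The number called depended on single libraries. It was 91 without Control TMX 1, 60 without Control TMX 2, 61 without Control TMX 3, 90 without Ehf IKO 2 and 69 without Ehf IKO 3, and it rose to 292 without Ehf IKO 4, with 168 higher and 124 lower. Of the called genes, 51 were called in each of the 8 fits with 1 library left out, 18 higher and 33 lower. Counts of called list members below are to be read beside the 0.356% higher and 0.546% lower of all tested genes. The lists were chosen with earlier results of these data known, so such counts are no test of a list. Genes are named by their place in the gene lists, by the size of their change or by their distance from Ehf. The exceptions, chosen after their values were seen, are Elf3, Duox2, A4gnt, Pdia5, Kit, Trpm6, Cacna1b, Chrm1, Chrnb4, Slc17a9, Cbr3, Sult1c2, Acss1, Tfrc, Slc7a11, Slc27a2, Cp, Acvr1c, Thbs1, Rap1gap, Ace, Hgfac, Ggh, Mvb12b, Mki67, Lgr5, Mrc1, Lyrm7, Gm21718 and Nnt.

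**Figure D1:**
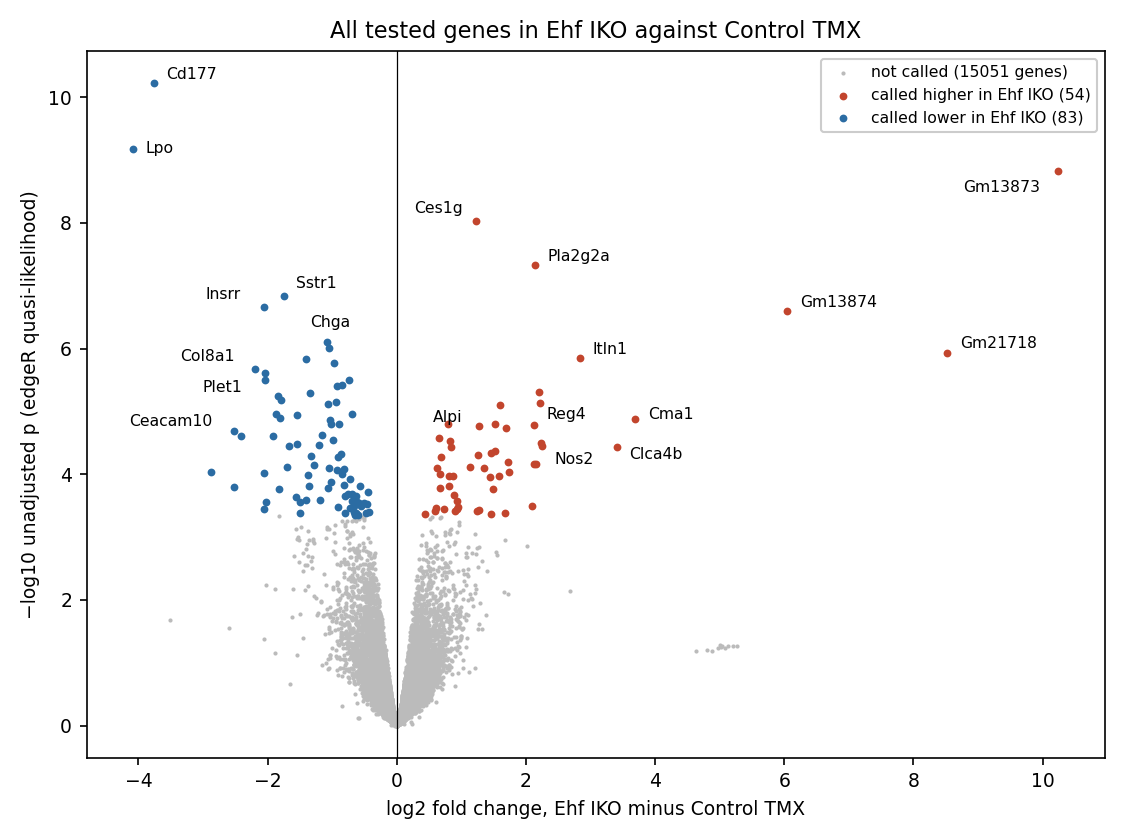
Each point is 1 of 15188 tested genes, placed by its log2 fold change (Ehf IKO minus Control TMX, x axis) and the -log10 of its unadjusted edgeR p (y axis), with 54 called rises in red and 83 called falls in blue. Lpo and Cd177 lie farthest from the rest among the falls, and the x positions of Gm13873, Gm13874 and Gm21718 come from fitted values against groups with 0 or 1 counts and are no measure of size.

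**Figure D2:**
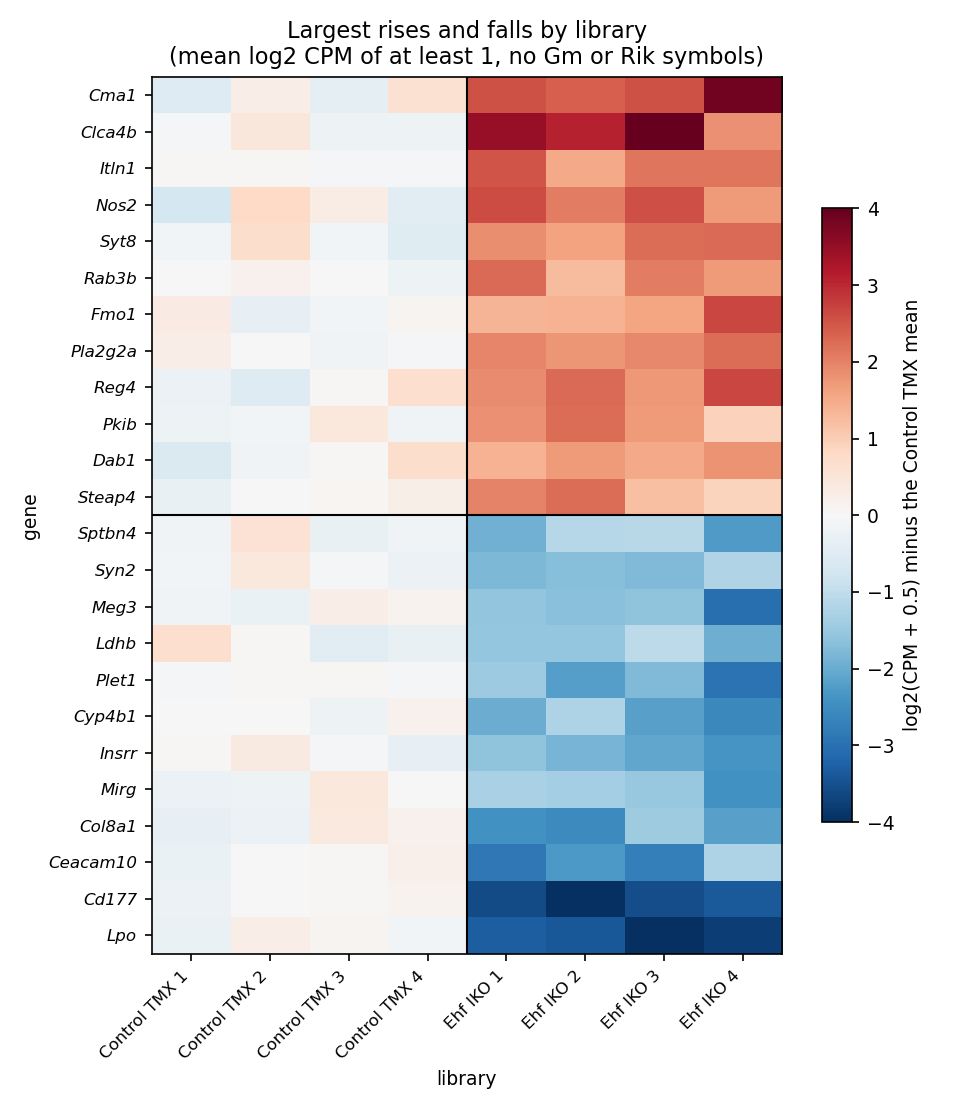
Heat map of the 12 largest called rises and 12 largest called falls (rows) among genes averaging 1 or more in log2 CPM, leaving out Gm and Rik gene models, in the 8 libraries (columns), coloured by log2(CPM + 0.5) minus the Control TMX mean. In each row all 4 Ehf IKO libraries lie on one side of all 4 Control TMX libraries, and Ehf IKO 4 is the most extreme of its group for Cma1, Fmo1, Meg3 and Plet1 among others.

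The steepest falls included genes for proteins of the cell surface. Cd177 (ENSMUSG00000052212, chromosome 7, 24743983 to 24760311, minus strand) encodes a GPI-anchored glycoprotein best known from neutrophils. It was at 77.7, 93.5, 95.5 and 102 CPM in Control TMX and at 7.17, 4.13, 7.44 and 8.40 CPM in Ehf IKO. The lowest control library was thus far above the highest knockout library, and Cd177 fell by 3.76 ± 0.18 on the log2 scale (13.5-fold, edgeR adjusted p = 9.0e-07). Ceacam10 (ENSMUSG00000054169, chromosome 7, 24777206 to 24784657, plus strand), a carcinoembryonic antigen relative, stood at 5.94, 7.39, 7.51 and 8.56 CPM in Control TMX and at 0.578, 1.10, 0.664 and 2.80 CPM in Ehf IKO, where replicate 4 was the highest. It fell by 2.53 ± 0.38 (edgeR adjusted p = 0.00728). Both genes sit side by side, 16895 bases apart, and are transcribed away from each other. Plet1 (ENSMUSG00000032068, chromosome 9, 50494525 to 50505482), whose product lies on the surface of epithelial cells, stood at 34.2, 37.6, 37.3 and 35.2 CPM in Control TMX and at 13.0, 7.44, 10.4 and 4.27 CPM in Ehf IKO, and fell by 2.03 ± 0.25 (edgeR adjusted p = 0.00265). An antisense gene overlaps Plet1, and reads were counted without strand, so both transcripts cannot be told apart. Ly6a, the GPI-anchored protein Sca-1, moved the other way, from 25.6, 23.7, 30.6 and 27.8 CPM to 49.6, 44.2, 50.2 and 41.9 CPM, a rise of 0.79 ± 0.11 (edgeR adjusted p = 0.00638). These were the 4 called genes among 17 tested members of a list of Cd177, Ceacam, Plet1 and Ly6-type genes. Of all tested genes 0.902% were called. The median log2 fold change of the list was 0.12. Ly6a was not called when all 12 libraries shared 1 fit (edgeR adjusted p = 0.313). Ceacam1, the family member whose protein is widespread on colonocytes, was at 1619 ± 148 and 1627 ± 373 CPM (SD, n = 4) and was not called. Ceacam genes resemble each other and are measured here by the reads that the authors' counting assigned to 1 gene.

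**Figure D3:**
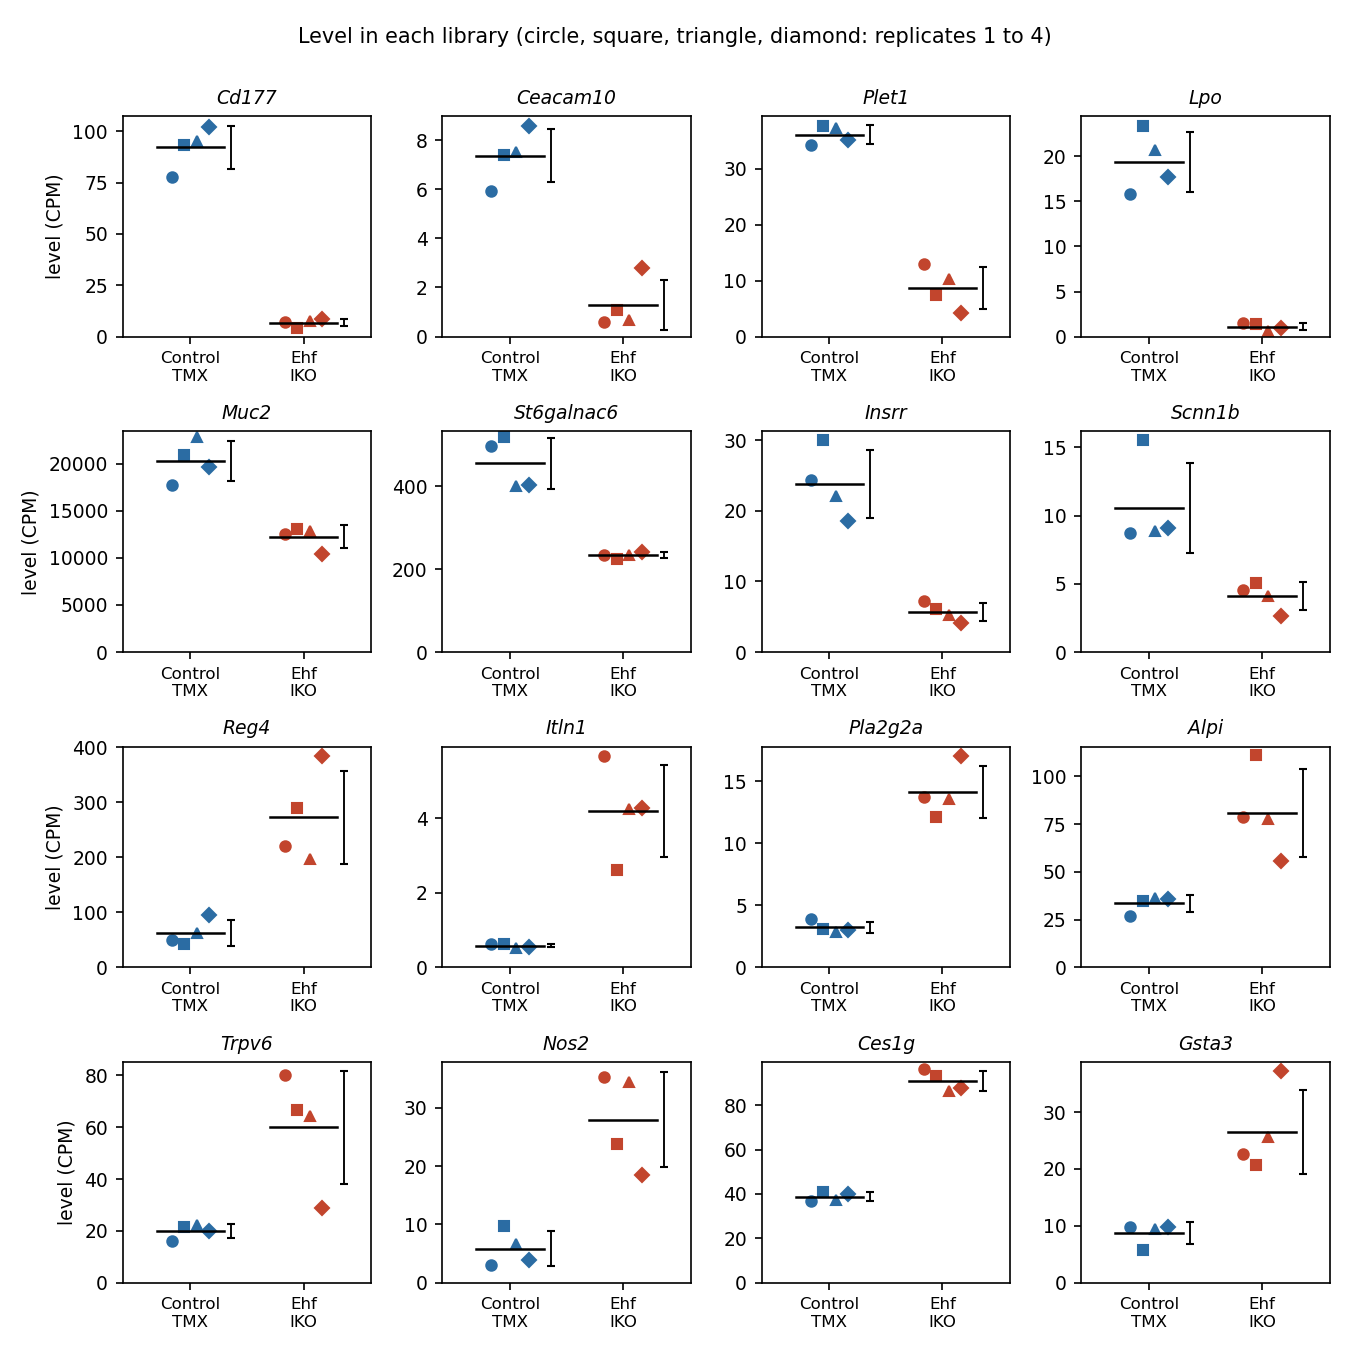
Level of 16 called genes in each library, in CPM on linear axes from 0, with Control TMX in blue and Ehf IKO in red. Horizontal bars are means and error bars are SD over n = 4 libraries, and in every panel the 2 groups do not overlap.

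The 250 bases upstream of the RefSeq start of Cd177, Ceacam10, Lpo and Reg4 are shown because the first 3 fell furthest among genes of the naming rule and Reg4 rose, and because ETS factors share a GGAA core. They were read from the GRCm38.p6 promoter table and are written 5′ to 3′ on the gene's strand, with GGAA on either strand (which reads TTCC on the printed one) in capitals.
Cd177 (chr7:24760312-24760561, minus strand): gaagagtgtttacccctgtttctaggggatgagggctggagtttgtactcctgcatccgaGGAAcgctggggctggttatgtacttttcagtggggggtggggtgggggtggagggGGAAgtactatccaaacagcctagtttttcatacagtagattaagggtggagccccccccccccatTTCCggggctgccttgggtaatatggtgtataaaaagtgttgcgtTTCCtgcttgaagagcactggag
Ceacam10 (chr7:24776917-24777166, plus strand): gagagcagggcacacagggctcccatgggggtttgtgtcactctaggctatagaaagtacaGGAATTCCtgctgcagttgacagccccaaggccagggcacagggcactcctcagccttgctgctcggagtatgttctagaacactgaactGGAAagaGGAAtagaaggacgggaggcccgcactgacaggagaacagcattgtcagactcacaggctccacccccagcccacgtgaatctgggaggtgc
Lpo (chr11:87826115-87826364, minus strand): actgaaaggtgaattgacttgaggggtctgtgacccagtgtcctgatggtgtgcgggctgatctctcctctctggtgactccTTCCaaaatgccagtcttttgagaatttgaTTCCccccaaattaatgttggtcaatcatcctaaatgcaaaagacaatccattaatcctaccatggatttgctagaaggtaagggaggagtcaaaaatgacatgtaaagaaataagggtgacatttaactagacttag
Reg4 (chr3:98221906-98222155, plus strand): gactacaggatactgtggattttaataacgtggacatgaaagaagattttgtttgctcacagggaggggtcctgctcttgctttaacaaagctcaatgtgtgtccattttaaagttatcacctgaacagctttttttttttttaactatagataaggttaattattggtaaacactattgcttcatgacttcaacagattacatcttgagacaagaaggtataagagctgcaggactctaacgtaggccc
Cd177 and Ceacam10 had 4 matches each, Lpo had 2 and Reg4 none. Reg4 was not the largest rise, since Cma1, Clca4b and Itln1 rose more. So few genes cannot compare falls with rises. The longer word GGAAGT, which contains GGAA, was found once, in Cd177, with its first base at -134 from the start on the gene's own strand. Such words are common: GGAA on either strand occurred in 94.2% of 27025 genes with a promoter in the table, and GGAAGT in 22.2%. Among the 10468 tested genes with an entry GGAA occurred in 94.4%, against 60 of 62 called lower (96.8%) and 34 of 38 called higher (89.5%). GGAAGT occurred in 26.5% of the 10468, against 13 of 62 called lower (20.97%) and 7 of 38 called higher (18.4%). CGGAAGT occurred in 10.99% of tested genes, in 1 gene called lower and in 2 called higher, and AGGAAGT in 8.54%, 9.68% and 10.5%. A match is a description of these letters and not a site.

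Oxidases and proteins that act on bacteria changed in both directions. Lpo (ENSMUSG00000009356, chromosome 11, 87806428 to 87828289), the secreted peroxidase lactoperoxidase, was at 15.8, 23.3, 20.7 and 17.7 CPM in Control TMX and at 1.504, 1.38, 0.664 and 0.934 CPM in Ehf IKO. It fell by 4.08 ± 0.24, or 17.0-fold (edgeR adjusted p = 5.1e-06), the deepest fall among the called genes. Nos2, the inducible nitric oxide synthase, was at 3.13, 9.77, 6.66 and 3.91 CPM in Control TMX and at 35.2, 23.7, 34.4 and 18.5 CPM in Ehf IKO, and rose by 2.25 ± 0.33 (edgeR adjusted p = 0.0100). Duoxa2, which matures the hydrogen peroxide-forming oxidase DUOX2, went from 4.53, 7.14, 8.25 and 5.30 CPM to 25.9, 20.5, 23.7 and 12.1 CPM, a rise of 1.70 ± 0.25 (edgeR adjusted p = 0.00689). Duox2 itself was at 258 ± 59.3 and 428 ± 150.9 CPM (SD, n = 4), with overlapping groups and an edgeR adjusted p of 0.316. These 3 (Lpo, Nos2 and Duoxa2) were the called genes among 17 tested oxidases, peroxidases and nitric oxide synthases, against 0.902% of all tested genes.

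Among 26 tested defence genes, 2 rose and 2 fell. Itln1, a lectin that binds microbial sugars, was at 0.625, 0.627, 0.529 and 0.558 CPM in Control TMX and at 5.67, 2.62, 4.25 and 4.27 CPM in Ehf IKO, and rose by 2.83 ± 0.33 (edgeR adjusted p = 0.00170). Zg16, a mucus lectin that binds Gram-positive bacteria, rose from 813 ± 43.4 to 1295 ± 201 CPM (SD, n = 4, log2 fold change 0.67 ± 0.13, edgeR adjusted p = 0.0274). Pglyrp1, a peptidoglycan recognition protein, fell from 35.7 ± 4.93 to 17.9 ± 3.24 CPM (log2 fold change -0.99 ± 0.15, edgeR adjusted p = 0.00917), and Lpo counts here too. Zg16 was not called without Control TMX 1, 2 or 3 or Ehf IKO 2 or 3 (edgeR adjusted p up to 0.112), and Itln1 not when all 12 libraries shared 1 fit (0.103).

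Mucus genes did not move as a block. Muc2 (chromosome 7), the gel-forming mucin of goblet cells, was at 17769, 20954, 22808 and 19638 CPM in Control TMX and at 12542, 13105, 12808 and 10433 CPM in Ehf IKO, a fall of 0.73 ± 0.13 (edgeR adjusted p = 0.0216). Muc13, a mucin anchored in the apical membrane, rose by 0.62 ± 0.11 (edgeR adjusted p = 0.0171), from 972, 917, 972 and 889 CPM to 1465, 1458, 1548 and 1275 CPM. Clca4b, of a family of secreted and membrane proteins first described as chloride channel regulators, went from 6.25, 9.02, 5.50 and 5.58 CPM to 77.1, 58.4, 119 and 24.0 CPM. Its rise of 3.41 ± 0.46 (edgeR adjusted p = 0.0101) was carried by all 4 knockout libraries, of which Ehf IKO 4 was the lowest. With Itln1 and Zg16 higher and Pdia5, a disulfide isomerase, lower (51.9 ± 5.24 and 33.3 ± 5.57 CPM, SD, n = 4), 4 of 29 tested members of the mucus and goblet list rose and 2 fell, with a median log2 fold change of 0.00. Muc2 lost its call without Control TMX 2 or 3 or Ehf IKO 1, 2 or 3 (edgeR adjusted p up to 0.109) and in the 12-library fit (0.0823), Muc13 without Control TMX 2 or 3 or Ehf IKO 3 (up to 0.0694), Clca4b without Control TMX 4 (0.0736) and in the 12-library fit (0.118) and with a score of the sex markers as covariate (0.0535), and Pdia5 without any 1 library but Ehf IKO 4 (up to 0.193). With a fibroblast and matrix score as covariate the log2 fold change of Muc2 was -0.73 with an edgeR adjusted p of 0.0746.

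Members of a list of mucin-type O-glycosylation genes were represented among the falls. St6galnac6, a sialyltransferase, was at 498, 518, 402 and 404 CPM in Control TMX and at 235, 224, 234 and 241 CPM in Ehf IKO, a fall of 0.96 ± 0.11 (edgeR adjusted p = 0.00187). B3gnt6, which makes the core 3 structure of colonic mucin, was at 22.5, 29.3, 23.3 and 23.3 CPM and at 14.7, 12.3, 12.9 and 12.8 CPM, a fall of 0.90 ± 0.13 (edgeR adjusted p = 0.00638). B4galt4, a galactosyltransferase, fell by 0.64 ± 0.13 from 32.3 ± 2.61 to 20.8 ± 3.48 CPM (SD, n = 4, edgeR adjusted p = 0.0494). These were the 3 called genes among 38 tested members of the mucin-type O-glycosylation list, whose median was -0.02. A4gnt, which caps mucin chains with N-acetylglucosamine and was not on the list, fell by 1.28 ± 0.22 from 13.2 ± 3.69 to 5.45 ± 0.595 CPM (edgeR adjusted p = 0.0162). B4galt4 was not called without any 1 library but Ehf IKO 4 (edgeR adjusted p up to 0.201), nor A4gnt without Control TMX 2 or 3 or Ehf IKO 3 (up to 0.0838), nor B3gnt6 and B4galt4 in the 12-library fit (0.0568 and 0.0536).

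Among 25 tested genes of secretory lineage factors and the Notch pathway 2 fell, 15 were lower in all and the median was -0.06. Spdef, an ETS factor needed for goblet cell maturation, was at 123, 150.4, 76.0 and 95.9 CPM in Control TMX and at 59.7, 54.4, 51.3 and 49.5 CPM in Ehf IKO, a fall of 1.05 ± 0.18 (edgeR adjusted p = 0.0172). It was the only called gene among 17 tested ETS factors. Ern2, the goblet cell sensor of unfolded protein in the endoplasmic reticulum, fell by 0.51 ± 0.10 from 184 ± 15.2 to 129.7 ± 10.6 CPM (SD, n = 4, edgeR adjusted p = 0.0394). With a score of the sex markers as covariate, 4 of the 25 were called lower. Spdef lost its call without Control TMX 1 or Ehf IKO 2 or 3 (edgeR adjusted p up to 0.0819) and Ern2 without any 1 library but Ehf IKO 4 (up to 0.159).

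The called products of deep crypt secretory and Paneth-type cells were higher. Reg4 (ENSMUSG00000027876, chromosome 3), a secreted lectin and marker of the deep crypt secretory lineage, stood at 50.0, 41.6, 61.8 and 95.4 CPM in Control TMX and at 220.3, 289, 197 and 384 CPM in Ehf IKO. It rose by 2.13 ± 0.28 (4.37-fold, edgeR adjusted p = 0.00638). Pla2g2a, a secreted phospholipase with antibacterial activity, was at 3.91, 3.13, 2.85 and 2.98 CPM and at 13.8, 12.1, 13.6 and 17.1 CPM, a rise of 2.14 ± 0.18 (edgeR adjusted p = 1.4e-04). The annotation lists Pla2g2a as a polymorphic pseudogene, and C57BL/6 mice are known to carry a frameshift in it that some other strains lack. With Itln1, 3 of 11 tested members were called higher and none lower, against 0.356% and 0.546% of all tested genes. The list had a median of 0.70. In all, 7 members were higher and 4 lower. With a score of the sex markers as covariate, 4 were called higher and 1, Nupr1, lower. Kit, another gene of deep crypt secretory cells that mast cells also make, was at 71.5 ± 7.70 and 64.5 ± 3.70 CPM (SD, n = 4) and was not called. Without both Ehf IKO 2 and Ehf IKO 4 the rise of Reg4 was 1.75 and missed the threshold (edgeR adjusted p = 0.105).

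Absorptive colonocyte genes changed singly. Alpi (ENSMUSG00000079440, chromosome 1), the intestinal alkaline phosphatase of the brush border, was at 27.0, 35.0, 36.2 and 35.8 CPM in Control TMX and at 78.8, 111, 77.9 and 55.5 CPM in Ehf IKO, a rise of 1.27 ± 0.18 (edgeR adjusted p = 0.00652). Trpv6, the apical calcium channel, was at 16.1, 21.6, 22.3 and 19.8 CPM and at 80.1, 66.5, 64.2 and 28.8 CPM, a rise of 1.58 ± 0.26 (edgeR adjusted p = 0.0200), with Ehf IKO 4 nearest the controls. Trpm6, the magnesium channel, was at 155, 216, 255 and 204 CPM and at 319.7, 304, 346 and 291 CPM, without overlap, but missed the threshold (log2 fold change 0.60 ± 0.14, edgeR adjusted p = 0.0805). Enzymes and transporters were among the falls. The membrane carbonic anhydrase Car12 went from 61.9 ± 7.22 to 37.3 ± 7.81 CPM (SD, n = 4, log2 fold change -0.73 ± 0.15, edgeR adjusted p = 0.0443). The sulfotransferase Sult1a1 went from 167 ± 18.7 to 112.7 ± 7.77 CPM (log2 fold change -0.56 ± 0.11, edgeR adjusted p = 0.0267). Slc30a10, a manganese exporter, went from 93.0 ± 14.7 to 45.8 ± 11.8 CPM (log2 fold change -1.02 ± 0.18, edgeR adjusted p = 0.0238). Its start overlaps Gm2061 on the other strand, and reads of the shared stretch cannot be told apart. In all, 1 of 39 tested colonocyte genes rose and 3 fell, with a median of 0.01, and Trpv6 alone was called among 17 genes of calcium, magnesium and phosphate handling. Leaving out 1 library ended the call of Trpv6 in 6 of 8 fits (all but Ehf IKO 1 and 4, edgeR adjusted p up to 0.0688), of Car12 in the same 6 (up to 0.188), of Sult1a1 in 6 (all but Control TMX 2 and Ehf IKO 4, up to 0.135) and of Slc30a10 in 5 (all but Control TMX 2 and Ehf IKO 1 and 4, up to 0.0933). With all 12 libraries in 1 fit, Sult1a1, Slc30a10 and Car12 were not called (edgeR adjusted p = 0.346, 0.0753 and 0.0519).

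Of 23 tested genes of the sodium channel and aldosterone list, 2 fell, 17 were lower in all and 6 higher. Scnn1b, a subunit of the epithelial sodium channel through which the distal colon takes up salt, was at 8.76, 15.5, 8.88 and 9.12 CPM in Control TMX and at 4.51, 5.10, 4.12 and 2.67 CPM in Ehf IKO, a fall of 1.36 ± 0.25 (edgeR adjusted p = 0.0266). Scn2b, a subunit of voltage-gated sodium channels, was at 2.19, 4.64, 2.11 and 2.42 CPM and at 0.810, 0.689, 0.266 and 0.133 CPM, a fall of 2.51 ± 0.47 (edgeR adjusted p = 0.0273). Scnn1g, a further subunit of the epithelial channel, was at 5.00, 9.15, 1.69 and 2.79 CPM and at 0.578, 3.03, 0.930 and 1.47 CPM, with overlapping groups and no call (edgeR adjusted p = 0.316). Scnn1b lost its call without Control TMX 2 or 3 or Ehf IKO 1 or 3 (edgeR adjusted p up to 0.105) and Scn2b without Control TMX 2 or 3 or Ehf IKO 2 or 3 (up to 0.120).

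Genes of hormone-releasing cells and of receptors, channels and cytoskeleton best known from neurons were mostly lower. Chga, which encodes the granule protein chromogranin A of enteroendocrine cells, was at 105, 114, 86.2 and 89.0 CPM in Control TMX and at 49.2, 49.2, 47.7 and 39.3 CPM in Ehf IKO, a fall of 1.08 ± 0.12 (edgeR adjusted p = 0.00133). Of 20 tested enteroendocrine genes 17 were lower, with a median of -0.46, and Chga alone was called. With a score of the sex markers as covariate Chga, Tph1 and Chgb were called lower and Ddc higher. Insrr, a receptor of the insulin receptor family that responds to alkaline pH, was at 24.4, 29.9, 22.1 and 18.5 CPM and at 7.29, 6.06, 5.18 and 4.13 CPM, a fall of 2.05 ± 0.20 (edgeR adjusted p = 4.7e-04). Vipr2, a receptor for vasoactive intestinal peptide, was at 7.04, 8.02, 10.0 and 6.42 CPM and at 2.66, 2.34, 2.52 and 1.47 CPM, a fall of 1.80 ± 0.24 (edgeR adjusted p = 0.00422). Sptbn4, a spectrin of axon initial segments, fell by 1.83 ± 0.34 from 5.95 ± 1.90 to 1.67 ± 0.815 CPM (SD, n = 4, edgeR adjusted p = 0.0282), and Cacna1b, an N-type calcium channel subunit, by 0.81 ± 0.16 from 17.6 ± 3.37 to 10.1 ± 0.834 CPM (edgeR adjusted p = 0.0339). With Scn2b, 5 of 19 tested members of this list were called lower and none higher, against 0.546% and 0.356% of all tested genes. In all, 13 members were lower and 6 higher. The list was chosen with earlier results of these data known, so the count is no test of such genes. Off the lists, Sstr1, a somatostatin receptor, was at 20.6, 20.6, 19.03 and 18.7 CPM and at 5.09, 4.68, 5.85 and 7.74 CPM, a fall of 1.75 ± 0.16 (edgeR adjusted p = 3.7e-04). The muscarinic receptor Chrm1 fell by 1.02 ± 0.15 from 12.2 ± 0.750 to 6.01 ± 0.567 CPM (edgeR adjusted p = 0.00638), and the nicotinic receptor subunit Chrnb4 by 1.37 ± 0.24 from 5.80 ± 1.26 to 2.25 ± 0.412 CPM (edgeR adjusted p = 0.0199). Markers of enteric neurons and glia (12 genes) summed to 7.97 to 13.5 CPM in Control TMX and 4.27 to 15.4 CPM in Ehf IKO. The highest sum was in Ehf IKO 2. Of the 12 genes, 2 could be tested, both lower and neither called. The one of them with groups that did not overlap, Ret, a receptor of enteric neurons, was at 3.38 ± 0.790 and 1.84 ± 0.625 CPM (edgeR adjusted p = 0.287), and its part in the falls above was not tested. Other members were near 0, with Tubb3 and Elavl4 at or under 0.964 CPM, both highest in Ehf IKO 2. Sptbn4 lost its call without Control TMX 1, 2 or 3 or Ehf IKO 1 or 3 (edgeR adjusted p up to 0.112), Cacna1b without Control TMX 2 or 3 or Ehf IKO 1, 2 or 3 (up to 0.123) and Chrnb4 without Control TMX 2, 3 or 4 or Ehf IKO 2 or 3 (up to 0.0928). In the 12-library fit Cacna1b and Chrnb4 were not called (0.0930 and 0.0682).

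Genes of vesicle release moved in both directions. Rab3b, a small GTPase of secretory vesicles, was at 1.41, 1.63, 1.37 and 1.12 CPM in Control TMX and at 8.56, 4.00, 7.18 and 5.601 CPM in Ehf IKO, a rise of 2.20 ± 0.29 (edgeR adjusted p = 0.00353). Syt8, of the synaptotagmin family, was at 1.72, 3.38, 1.69 and 1.21 CPM and at 8.21, 6.75, 10.8 and 11.1 CPM, a rise of 2.22 ± 0.30 (edgeR adjusted p = 0.00428). Rph3al, which binds Rab3 and Rab27 proteins on granules, fell by 1.07 ± 0.14 from 26.4 ± 4.36 to 12.5 ± 1.18 CPM (SD, n = 4, edgeR adjusted p = 0.00428). No other of the 28 tested members was called. Syn2, a synapsin that coats vesicles, fell by 1.87 ± 0.26 from 6.21 ± 1.41 to 1.69 ± 0.476 CPM (edgeR adjusted p = 0.00555), and Slc17a9, which loads ATP into vesicles, by 1.04 ± 0.12 from 91.0 ± 8.03 to 44.0 ± 5.79 CPM (edgeR adjusted p = 0.00148).

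Among 50 tested genes of drug and xenobiotic metabolism, 4 rose and 3 fell. Fmo1, a flavin-containing monooxygenase, was at 2.03, 1.13, 1.37 and 1.68 CPM in Control TMX and at 4.74, 4.82, 5.58 and 12.5 CPM in Ehf IKO, a rise of 2.16 ± 0.37 (edgeR adjusted p = 0.0161). The glutathione transferases Gsta3 and Mgst1 rose by 1.601 ± 0.22, from 8.73 ± 1.98 to 26.5 ± 7.39 CPM, and by 0.84 ± 0.13, from 63.2 ± 8.27 to 114 ± 19.7 CPM (SD, n = 4, edgeR adjusted p = 0.00430 and 0.0101). Cbr3, a carbonyl reductase, rose from 20.1 ± 2.06 to 30.6 ± 3.15 CPM (edgeR adjusted p = 0.0443). Cyp4b1, a cytochrome P450, was at 16.9, 16.8, 14.6 and 18.98 CPM and at 3.82, 6.75, 3.32 and 2.40 CPM, a fall of 2.05 ± 0.25 (edgeR adjusted p = 0.00230), and the sulfotransferases Sult1a1 and Sult1c2 also fell, the latter from 25.6 ± 3.71 to 16.2 ± 1.11 CPM (edgeR adjusted p = 0.0432). Ces1g, a carboxylesterase, rose with little spread within groups, from 36.9, 41.0, 37.2 and 40.0 CPM to 96.4, 93.1, 86.4 and 87.9 CPM (1.23 ± 0.09, edgeR adjusted p = 3.6e-05). Carboxylesterases and glutathione transferases are close families whose reads can be split between copies. Fmo1 and Mgst1 lost their calls without Control TMX 2 or 3 (edgeR adjusted p up to 0.0784 and 0.0552), Cbr3 without any 1 library but Control TMX 4 and Ehf IKO 4 (up to 0.138), and Sult1c2 without any but Control TMX 2 and Ehf IKO 4 (up to 0.187). With all 12 libraries in 1 fit, Ces1g, Cyp4b1, Cbr3 and Sult1c2 were not called (edgeR adjusted p = 0.179, 0.128, 0.0640 and 0.378).

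Metabolic genes outside that list changed too. Ppargc1a, a co-activator of mitochondrial genes, was at 87.6, 79.1, 60.4 and 46.4 CPM in Control TMX and at 31.5, 32.9, 28.3 and 29.7 CPM in Ehf IKO, a fall of 1.15 ± 0.17 (edgeR adjusted p = 0.00843). It was the only called gene among 32 tested PPAR targets and fatty acid oxidation genes. Pfkfb3, whose product drives glycolysis through fructose 2,6-bisphosphate, was at 6.88, 6.01, 5.604 and 6.33 CPM and at 18.7, 26.2, 15.9 and 7.60 CPM, a rise of 1.47 ± 0.30 (edgeR adjusted p = 0.0484), and was the only one called of 30 glycolysis and hypoxia genes. Ldhb, the lactate dehydrogenase B subunit, fell by 2.02 ± 0.40 from 3.14 ± 1.31 to 0.745 ± 0.331 CPM (SD, n = 4, edgeR adjusted p = 0.0389), and Acss1, the mitochondrial acetyl-CoA synthetase, by 0.74 ± 0.09 from 86.7 ± 6.90 to 52.1 ± 1.19 CPM (edgeR adjusted p = 0.00265). Tfrc, the transferrin receptor, rose from 166 ± 8.06 to 261 ± 24.1 CPM (edgeR adjusted p = 0.00863), Slc7a11, the cystine importer, from 2.74 ± 1.65 to 9.11 ± 2.20 CPM (edgeR adjusted p = 0.0479), and Steap4, a metalloreductase, from 5.63, 6.89, 7.51 and 8.37 CPM to 29.2, 34.9, 17.0 and 13.6 CPM (1.72 ± 0.28, edgeR adjusted p = 0.0153). The ferroxidase Cp rose from 1.65 ± 0.320 to 4.07 ± 0.918 CPM (edgeR adjusted p = 0.0456), and Slc27a2, a fatty acid transporter, from 3.67 ± 0.414 to 8.80 ± 1.81 CPM (edgeR adjusted p = 0.0127). Pfkfb3 kept its call only without Ehf IKO 4 (edgeR adjusted p up to 0.181), Ldhb only without Control TMX 4 or Ehf IKO 4 (up to 0.127, and 0.0612 in the 12-library fit), Slc7a11 only without Control TMX 4 (up to 0.156) and Cp only without Ehf IKO 4 (up to 0.170). Steap4 lost it without Control TMX 2 or 3 (up to 0.0744), and Tfrc and Slc27a2 without Control TMX 3 (0.0501 and 0.0529). Ppargc1a lost it without both Ehf IKO 2 and Ehf IKO 4 (0.0719).

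Signalling and matrix genes completed the larger changes. Id4, an inhibitor of helix-loop-helix factors, rose by 1.53 ± 0.25 from 2.80 ± 0.889 to 8.28 ± 1.71 CPM (SD, n = 4, edgeR adjusted p = 0.0118) and was the only called gene among 21 tested of BMP signalling. Acvr1c, a receptor for activin and Nodal-type ligands, rose by 0.83 ± 0.13 from 18.4 ± 2.82 to 32.7 ± 1.87 CPM (edgeR adjusted p = 0.00942). Pkib, an inhibitor of protein kinase A, was at 0.782, 0.877, 1.48 and 0.837 CPM in Control TMX and at 4.74, 6.48, 4.25 and 2.27 CPM in Ehf IKO, a rise of 2.12 ± 0.36 (edgeR adjusted p = 0.0161). Dab1, an adaptor of reelin signalling, rose by 1.74 ± 0.31 from 1.53 ± 0.774 to 5.37 ± 0.730 CPM (edgeR adjusted p = 0.0189). Col8a1, a network-forming collagen, was at 20.2, 21.9, 33.5 and 29.3 CPM and at 4.40, 4.00, 9.30 and 5.33 CPM, a fall of 2.19 ± 0.26 (edgeR adjusted p = 0.00213). Further falls were those of the matrix protein gene Thbs1 (58.1 ± 8.61 to 30.6 ± 1.05 CPM, edgeR adjusted p = 0.00304), the Rap1 regulator Rap1gap (168 ± 18.3 to 93.5 ± 7.25 CPM, 0.00299), the peptidase Ace (24.7 ± 8.48 to 8.38 ± 1.40 CPM, 0.00992), the growth factor activator Hgfac (178 ± 10.4 to 110.2 ± 9.53 CPM, 0.00555), the folate hydrolase Ggh (72.1 ± 10.9 to 35.1 ± 6.56 CPM, 0.00609) and the ESCRT-I subunit Mvb12b (30.0 ± 6.04 to 11.3 ± 1.13 CPM, 0.00170). Id4 lost its call without Control TMX 2 or 3 (edgeR adjusted p up to 0.0603), Pkib without Control TMX 2 or Ehf IKO 3 (up to 0.0744) and Dab1 without Control TMX 2 or 3 or Ehf IKO 2 or 3 (up to 0.0877).

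Transcripts of the imprinted Dlk1-Dio3 domain on chromosome 12 fell together. Meg3, a non-coding RNA made from the maternal copy, was at 59.1, 54.4, 78.5 and 71.8 CPM in Control TMX and at 21.4, 20.1, 20.996 and 7.60 CPM in Ehf IKO, a fall of 1.91 ± 0.27 (edgeR adjusted p = 0.00843). Mirg, a further maternal non-coding RNA, fell by 2.06 ± 0.36 from 3.64 ± 0.934 to 0.864 ± 0.410 CPM (SD, n = 4, edgeR adjusted p = 0.0189). Rtl1, the paternally expressed gene between them, fell by 1.40 ± 0.28 from 3.95 ± 0.545 to 1.46 ± 0.479 CPM (edgeR adjusted p = 0.0382). Rian, between Meg3 and Mirg, had a log2 fold change of -1.52 ± 0.34 and missed the threshold (edgeR adjusted p = 0.0881). Antisense transcripts run through Rtl1, and reads were counted without strand. These 3 (Meg3, Mirg and Rtl1) were the called genes among 20 tested imprinted genes, of which 14 were lower. Among all tested genes 0.546% were called lower. Mirg lost its call without Control TMX 2 or 3 or Ehf IKO 3 (edgeR adjusted p up to 0.0846) and Rtl1 without Control TMX 1, 2 or 3 or Ehf IKO 2 or 3 (up to 0.150). In the 12-library fit neither was called (0.0885 and 0.0670).

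Many lists held no called gene in the fit without covariates. Structural lists of the brush border (28 tested), tight junctions (25), desmosomes and adherens junctions (23) and keratins and cornification (18) had none, although 17 of the 18 keratin and cornification genes were higher. In that list Sfn, a 14-3-3 protein of stratifying epithelia, was at 71.8 ± 3.11 and 91.4 ± 12.6 CPM (SD, n = 4, edgeR adjusted p = 0.208), and Dsg3, a desmosomal cadherin, at 1.44 ± 0.245 and 3.22 ± 1.41 CPM (edgeR adjusted p = 0.224). Cldn4, a tight junction claudin, was at 67.8 ± 19.5 and 114 ± 33.7 CPM (edgeR adjusted p = 0.291). Of 36 tested cell cycle and replication genes 34 were higher, with a median of 0.36, but none was called, and Mki67 was at 207, 256, 436 and 451 CPM in Control TMX and 362, 382, 490.2 and 622 CPM in Ehf IKO. The stem cell marker Lgr5 was at 9.93 ± 3.47 and 15.8 ± 4.90 CPM (edgeR adjusted p = 0.354), and its list of 26 stem cell and Wnt genes had a median of -0.04. Interferon and MHC class I genes were higher in 30 of 40. The one with the smallest p, Gbp3, was at 1.89 ± 0.164 and 3.61 ± 0.531 CPM (edgeR adjusted p = 0.114), and the one with the largest fold, Gbp2, at 6.99 ± 1.95 and 15.0 ± 5.70 CPM (edgeR adjusted p = 0.170). Circadian clock genes had the lowest median, -0.71 over 17 genes. Per3 was at 138.05, 140.2, 47.4 and 28.1 CPM in Control TMX, a spread within that group, and at 26.3, 22.7, 18.2 and 19.3 CPM in Ehf IKO, and was not called (edgeR adjusted p = 0.199). Lists of tuft cells, EGF-family ligands, cholesterol synthesis, p53 targets, MHC class II, chemokines, immediate early genes and intestinal identity factors also held no called gene. These counts come from a fit that leaves out sex, and replicates 1 and 2 (female) and 3 and 4 (male) stood apart in the cell cycle and clock lists. The mean log2 level of the cell cycle list, centred per gene, was -0.69, -0.50, 0.04 and 0.36 in Control TMX and 0.02, -0.01, 0.24 and 0.53 in Ehf IKO, and that of the clock list 0.88, 0.68, -0.08 and -0.30 and then -0.12, -0.07, -0.36 and -0.64. With a score of the sex markers as covariate, 347 genes were called in all, 3 cell cycle genes higher and 1 lower, and 5 clock genes lower, and Mki67 passed (log2 fold change 0.51, edgeR adjusted p = 0.0381). In that fit the tuft cell, EGF, MHC class II and chemokine lists held 1 rise each and the p53 and identity factor lists 1 fall each. A gene that was not called is not thereby shown to be unchanged.

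**Figure D4:**
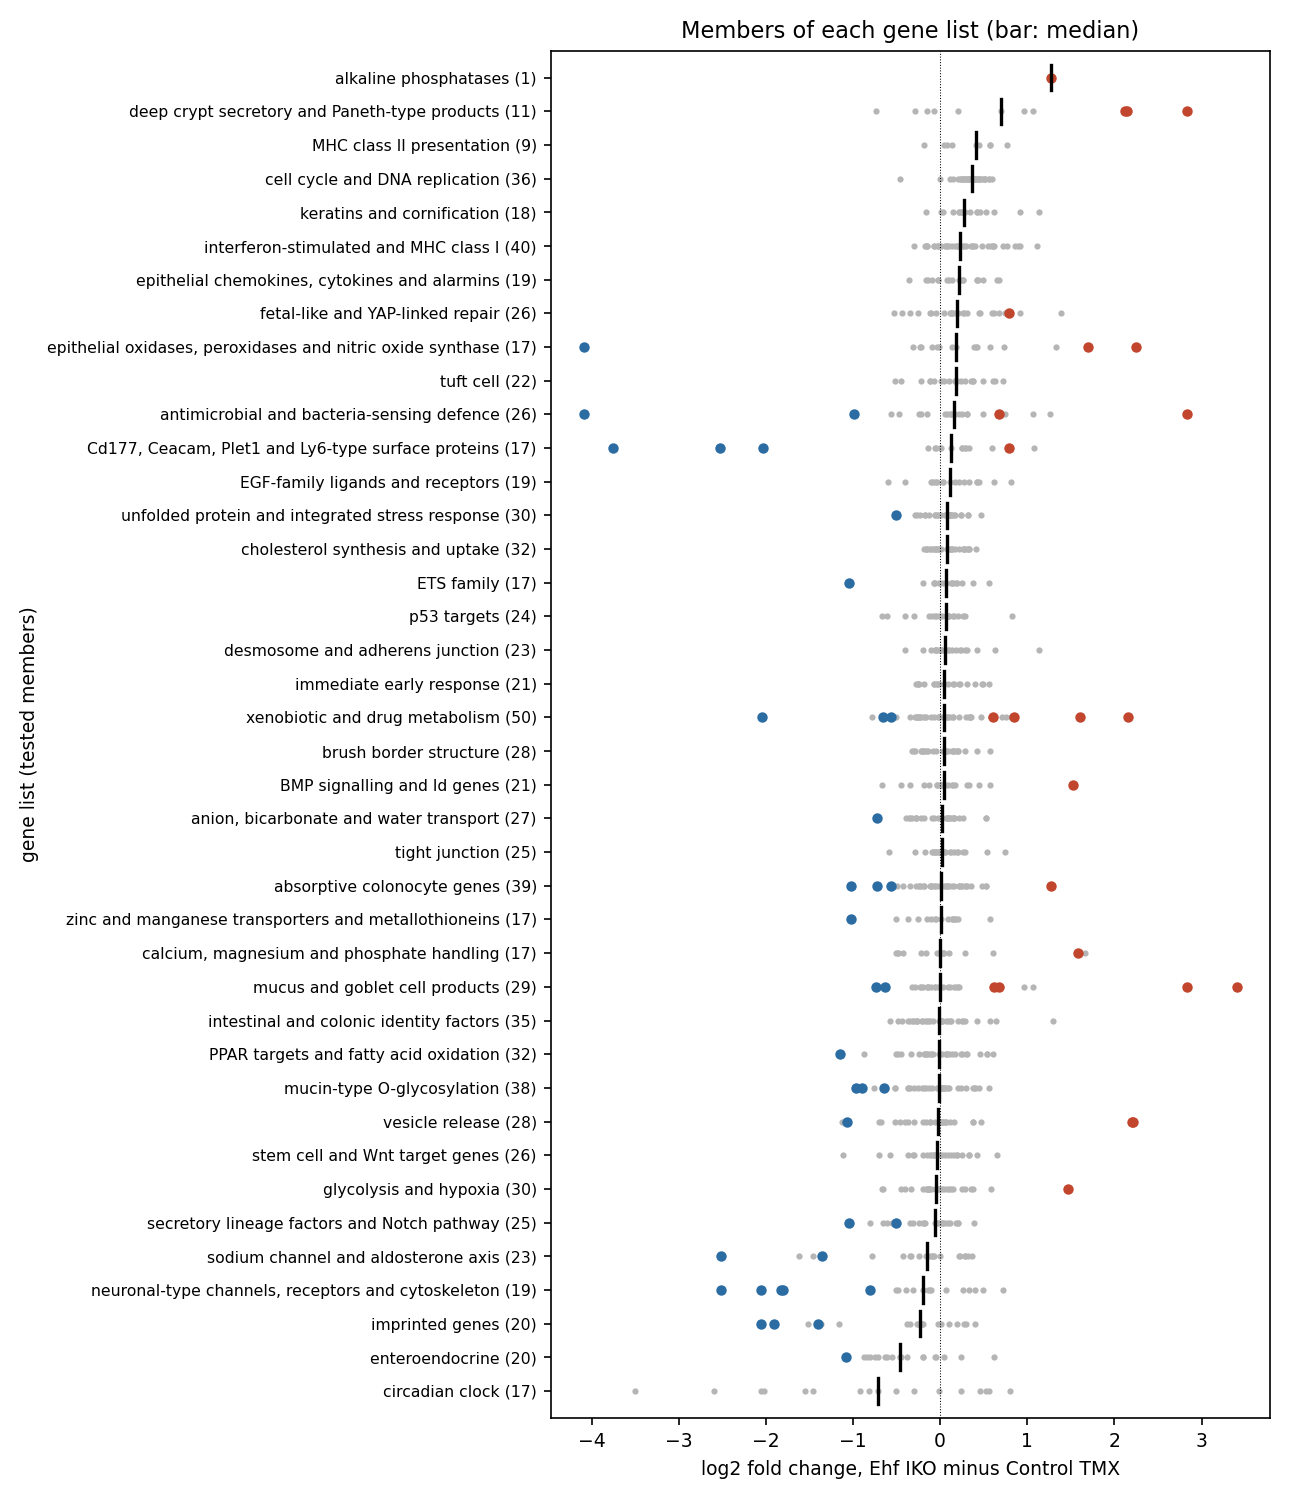
Each row is a gene list with its number of tested members, each point a member placed by its log2 fold change (Ehf IKO minus Control TMX), grey where not called, red where called higher and blue where called lower, and each black bar the list's median. The circadian clock row has the lowest median (-0.71) without a called member.

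Genes of other cell types were checked beside these changes. Cma1, a chymase of mast cells, had the largest fitted rise after the transcripts with at most 1 count in Control TMX, from 0.156, 0.627, 0.211 and 0.931 CPM to 4.97, 4.41, 4.92 and 13.1 CPM (3.70 ± 0.52, edgeR adjusted p = 0.00606). Other defining mast cell genes were near 0, with Cpa3 and Mcpt4 at or under 0.138 CPM, Fcer1a at or under 0.231 CPM and Tpsab1 at or under 0.413 CPM in all 8 libraries, and the 14-gene mast cell list summed to 63.6 to 81.8 CPM in Control TMX and 67.4 to 81.1 CPM in Ehf IKO, most of it Kit. Mcpt1, a mucosal mast cell protease that held too few counts to be tested, was at 0 to 0.501 CPM and at 0.964 to 2.93 CPM. Mrc1, the mannose receptor of macrophages, rose by 1.25 ± 0.26 from 2.73 ± 0.851 to 6.64 ± 1.505 CPM (SD, n = 4, edgeR adjusted p = 0.0467), a call that was lost without Control TMX 1, 2 or 3 or Ehf IKO 1, 2 or 3 (up to 0.183). Of 10 tested macrophage, dendritic cell and granulocyte markers 9 were higher and none was called, and the list summed to 52.1 to 68.8 CPM in Control TMX and 52.7 to 81.2 CPM in Ehf IKO. All 5 tested B and plasma cell markers were higher without a call, and none of the 5 was free of overlap between the groups. Most of their sum (176 to 236 and 244 to 353 CPM) was Sdc1, at 163 ± 23.5 and 177 ± 22.7 CPM. Igkc and Jchain in Ehf IKO 4 (8.27 and 3.33 CPM) were at or below the control libraries. Of 11 tested smooth muscle markers 7 were lower and none was called, with sums of 143 to 239.6 CPM in Control TMX and 94.95 to 189 CPM in Ehf IKO. Mylk, the myosin light chain kinase, was wholly lower at 74.9 ± 16.2 and 43.8 ± 8.18 CPM (edgeR adjusted p = 0.0709). Of 6 tested endothelial markers 3 were lower and none was called, and Vwf (7.03 ± 0.750 and 5.24 ± 1.14 CPM) and Lyve1 (2.05 ± 0.139 and 1.51 ± 0.229 CPM) lay wholly below the controls. Fibroblast and matrix markers summed to 646 to 1059 CPM and 646 to 1379.9 CPM, 15 of 19 higher and none called. The 14 epithelial markers summed to 30806 to 35716 CPM in Control TMX and 23603 to 27927 CPM in Ehf IKO, and without Muc2 to 12251 to 13789.6 and 13169.6 to 14822 CPM. The part of other cell types in the changes above was not tested.

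Levels in Control OIL placed some changes differently. Counted in a fit of all 12 libraries, 13 of 15743 genes (0.0826%) were called between Control TMX and Control OIL, which differ in tamoxifen and in line. This comparison shares the Control TMX libraries with the main one, so levels are given side by side. For some genes the mean of Control OIL was nearer that of Ehf IKO than that of Control TMX. Nos2 averaged 34.5 ± 4.70 CPM in Control OIL, against 5.84 ± 2.96 in Control TMX and 28.1 ± 8.20 in Ehf IKO (SD, n = 4), with a log2 fold change of -2.55 ± 0.30 between Control TMX and Control OIL (edgeR adjusted p = 0.00404). Duoxa2 was at 18.6 ± 1.85, 6.29 ± 1.69 and 20.6 ± 6.05 CPM in the same order (-1.56 ± 0.22, edgeR adjusted p = 0.0129). Lyrm7, a mitochondrial assembly factor, was at 8.16 ± 0.343, 3.11 ± 0.882 and 8.94 ± 0.907 CPM (-1.40 ± 0.20, edgeR adjusted p = 0.0123). The lincRNA Gm21718 had no count in Control TMX and was at 2.52, 5.42, 3.82 and 14.5 CPM in Control OIL and 6.52, 5.80, 7.32 and 2.82 CPM in Ehf IKO, at least 64.9-fold higher in Ehf IKO than a floor of 3 counts over Control TMX. Ppargc1a was at 35.9 ± 2.51, 68.0 ± 18.002 and 30.7 ± 2.03 CPM, and Slc30a10 at 31.6 ± 10.6, 92.7 ± 15.0 and 45.9 ± 11.8 CPM (edgeR adjusted p = 0.0413 for each between the controls). Clca4b, at 97.8 ± 85.3, 6.56 ± 1.59 and 69.8 ± 39.5 CPM, and Ly6a, at 73.4 ± 39.4, 26.8 ± 3.13 and 46.7 ± 4.07 CPM, had their highest mean in Control OIL and their lowest in Control TMX, and were not called between the controls (edgeR adjusted p = 0.145 and 0.114). The Ly6a mean in Ehf IKO was nearer that of Control TMX.

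Other genes lay farther from Ehf IKO in Control OIL than in Control TMX. Cd177 averaged 263 ± 51.2, 91.9 ± 10.7 and 6.82 ± 1.87 CPM in Control OIL, Control TMX and Ehf IKO (SD, n = 4), and Ceacam10 29.0 ± 4.54, 7.33 ± 1.11 and 1.29 ± 1.04 CPM, and both were called between the controls (edgeR adjusted p = 0.00200 and 0.00404). Alpi was at 15.5 ± 4.69, 33.4 ± 4.42 and 81.2 ± 22.9 CPM, without a call between the controls (edgeR adjusted p = 0.114). In Lpo (26.1 ± 6.29, 19.3 ± 3.22 and 1.12 ± 0.392 CPM), St6galnac6 (495 ± 17.98, 454 ± 57.2 and 234 ± 7.65 CPM) and Reg4 (71.8 ± 19.1, 62.1 ± 24.1 and 274 ± 84.8 CPM) both control means lay on the same side of Ehf IKO. Nnt, the mitochondrial transhydrogenase, which carries a known deletion in C57BL/6J mice that C57BL/6N mice lack, ranged from 14.6 to 28.8 CPM in Control OIL, from 15.0 to 18.01 in Control TMX and from 22.9 to 33.5 in Ehf IKO, and was called between Ehf IKO and Control TMX (0.80 ± 0.14, edgeR adjusted p = 0.0200). Nnt lost that call without Control TMX 1, 2 or 3 or Ehf IKO 1 or 2 (up to 0.0652) and in the 12-library fit (0.0753). Which substrains the lines were bred from is not given in the labels, and line, tamoxifen and Ehf cannot be told apart for genes of these kinds.

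**Figure D5:**
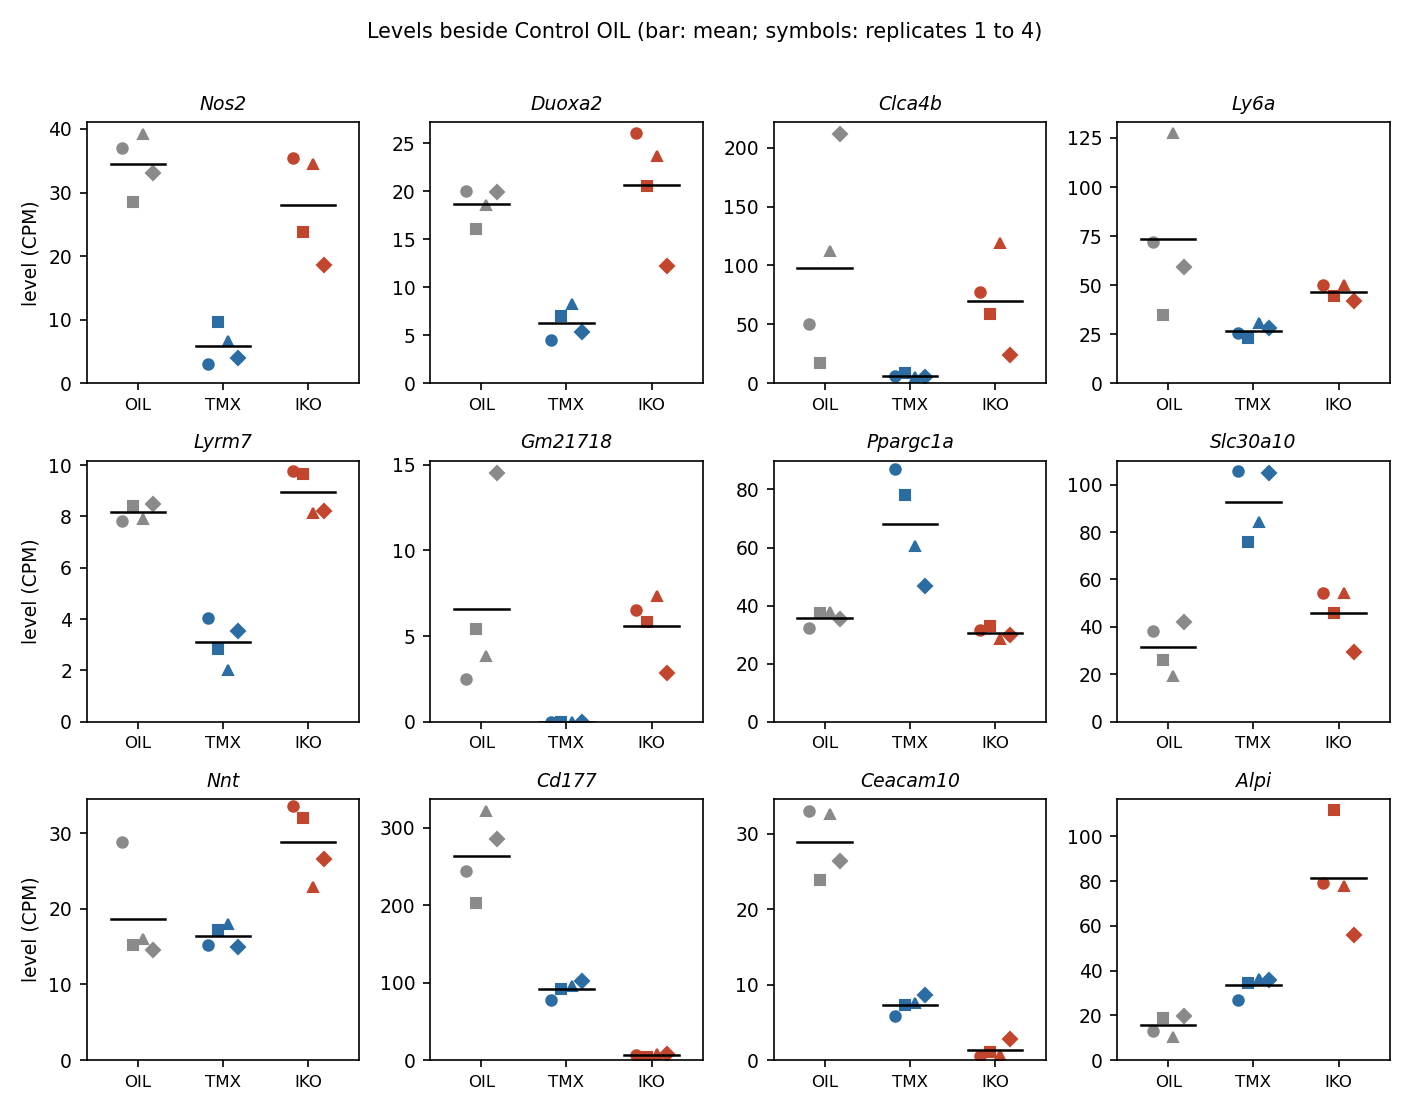
Levels of 12 genes in Control OIL (grey), Control TMX (blue) and Ehf IKO (red), in CPM scaled over all 12 libraries, with bars at the means of n = 4 and symbols for replicates 1 to 4. For Nos2, Duoxa2, Lyrm7 and Gm21718 the Control TMX libraries lie below both other groups, while for Cd177, Ceacam10 and Alpi the means of Control TMX lie between the others.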

How the data were processed

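RNA was sequenced from colonic epithelium of 12 mice, of which 8 enter this comparison. The deposited values are raw counts per gene, made by the authors with STAR, per the submitters' processing notes (version not given in the sources used here), and with featureCounts 1.6.1 on the exons of Ensembl release 98 for GRCm38 with strand setting 0, per the file headers. Of 55304 gene symbols, 53510 matched 1 Ensembl identifier in GENCODE M21, from which positions and biotypes were taken.

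Genes passing edgeR's filterByExpr (15188 of the 40388 with a count, the other 25200 not tested) were scaled by TMM and tested with the quasi-likelihood F-test of edgeR 4.0.16 (R 4.3.3) in a fit of the 8 libraries with 6 residual degrees of freedom and no covariate. P-values were adjusted by Benjamini-Hochberg over all tested genes. The SE is the log2 fold change divided by the root of F. The biological coefficient of variation was 18.3%. Totals of 7421411 to 10344161 counts set the precision. On counts simulated for this comparison over 14907 genes, edgeR recovered 74% of 2-fold and 97% of 4-fold changes with 7 false calls, DESeq2 79% and 98% with 26, and limma-voom 70% and 98% with 7. The changes were put into 200 genes averaging above 1 in log2 CPM, and no effect of sex was simulated. Recovery among genes with fewer counts was thus not measured.

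Alternatives were DESeq2 1.42.0, limma-voom 3.58.1, other scalings and filters, covariates, a replicate block, all 12 libraries in 1 fit and each library left out. Same-numbered libraries deviated together with correlations of 0.243, 0.128, 0.0988 and 0.424 over all genes. Libraries of different number gave -0.374 to 0.215. Same-numbered libraries share a sex, so these values cannot tell pairing from sex, and the main fit did not pair the samples. The members and gene lists were chosen with earlier results of these data known. Named genes are Ehf and genes within 150000 bases of it, the 12 largest rises and falls and the 6 smallest p-values among called genes averaging 1 or more in log2 CPM, leaving out Gm and Rik gene models, and up to 4 called members of each list (2 where none was called). Promoters are RefSeq sequences of GRCm38.p6.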

Additional observations from a re-analysis of the deposited data

Results flagged for a closer look

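Single libraries stood far from the other 3 of their group, by Dixon's test at 95%, in 23 of 282 groups of 4, where chance flags about 1 in 20. Ehf IKO 4 did so for 9 genes. It was the lowest of its group for Meg3 (7.60 CPM, the others 20.1 to 21.4), Chga (39.3 CPM), Mylk (31.6 CPM) and Elf3 (299 CPM). It was the highest for Cma1 (13.1 CPM), Fmo1 (12.5 CPM), Syn2 (2.40 CPM), Sult1a1 (124 CPM) and Lgr5 (23.1 CPM).

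Control TMX 2 was the highest of its group for Sptbn4 (8.77 CPM), B3gnt6 (29.3 CPM), Scnn1b (15.5 CPM) and Scn2b (4.64 CPM) and the lowest for Gsta3 (5.76 CPM). Control TMX 1 was the lowest for Alpi (27.0 CPM), the actin regulator Vill (21.9 CPM) and Chrnb4 (3.91 CPM). Control TMX 3 was the highest for Pkib (1.48 CPM) and the villin relative Avil (11.2 CPM), and Control TMX 4 for Gm13874 (0.0931 CPM, 1 count). Sfn was at 110.3 CPM in Ehf IKO 3 and the immediate early gene Ier5 at 41.6 CPM in Ehf IKO 2. Satellite-like genes took 10.4% of the counts of Ehf IKO 2 and 0.0404% to 0.109% in the other Ehf IKO libraries.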

How the results depend on the processing

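The called genes (54 higher, 83 lower, 79 at 2-fold or more) were compared with 21 alternatives, in which 41 of the genes were called throughout. Without the filter 510 genes were called, 209 higher, 301 lower and 204 at 2-fold or more, and the median log2 fold change of that fit was 0.15. DESeq2 called 310 (123 higher, 187 lower, 120 at 2-fold or more). A sex marker score as covariate gave 347 (136 higher, 211 lower, 124 at 2-fold or more), and a fibroblast and matrix score 86, of which 36 were higher and 50 lower. The replicate block gave 292 calls, 116 higher and 176 lower, among them every gene called without it. By the labels the libraries of a block share only a number, and by their sex genes they also share a sex. Leaving out 1 library gave 60 to 292 called genes, 23 to 168 higher, 37 to 124 lower and 44 to 117 at 2-fold or more. Without Ehf IKO 4, 57.5% of called genes were higher, against 39.4% with all libraries. Without both Ehf IKO 2 and 4, chosen after seeing the data, 102 were called, 56 higher and 46 lower. The cause was not tested. Over the genes named, 2541 fits kept the side of the threshold, 270 lost the call and 83 gained one. No named gene called in the main fit reversed its direction. For genes not named, or not called there, the direction was not compared. At this depth and 4 libraries a group, some 2-fold changes are missed, as the simulated counts show. Genes with few counts, into which no change was simulated, are limited most.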
